A study of Solanum lycopersicum with 84 samples.

Results

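The genes described here are *Solyc01g112190.3* and *Solyc08g013900.3*, which encode NIN-like proteins (NLPs), 2 of the 34075 genes counted in the RNA-Seq table of tomato (*Solanum lycopersicum*). They were chosen by identifier, as the NLP genes that the study lists among N-regulated transcription factor genes of roots. The closest Arabidopsis proteins given for them are AT4G35270 and AT2G43500, which are both NLPs. Because the fall in roots is what placed both genes on that list, it is given below as a description without a p-value, and the opposite response of *Solyc01g112190.3* in shoots was also known when the genes were chosen.

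NLPs are plant transcription factors with an RWP-RK domain, which binds DNA, and a PB1 domain, through which they interact with other proteins. In Arabidopsis, NLP7 binds nitrate and accumulates in the nucleus when nitrate is supplied, so that much of its regulation takes place at the protein level. NLPs then bind the promoters of genes for nitrate uptake, for its reduction to nitrite and ammonium, and for further regulators. Transcript levels, measured here, do not show where the protein is or whether it is active.

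Plants of cultivar M82 were grown hydroponically, and at 22 days of age they were moved to N-free medium for 4 days. They then received medium with nitrate (+N) or fresh N-free medium (−N), and shoots and roots were harvested 6 h later. Every group therefore went through the same starvation, and −N plants differ from +N plants only in the medium of the last 6 h. The 4 groups, +N shoots, −N shoots, +N roots and −N roots, had 3 replicates each, and according to the methods the tissue of 4 plants was pooled for each of them.

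The 12 libraries held 17472760 to 21901432 reads counted on genes. Levels are given as CPM, the reads of a gene per 1000000 reads of its library after scaling with the TMM factors of edgeR over all 12 libraries. Changes are +N over −N on the log2 scale. They were fitted with TMM factors computed within each organ, so they can depart slightly from the ratio of the mean CPM values. A gene was called up- or down-regulated at an adjusted p of 0.015 (edgeR, Benjamini-Hochberg over all genes tested) and a 2-fold change. The organs were distinct in their markers: all 8 genes of photosynthetic tissue were higher in each shoot library than in each root library, and 7 of 8 root genes were higher in each root library. Their summed levels were 4296 to 11331 CPM in shoots against 7.81 to 21.3 CPM in roots for the photosynthetic genes, and 30.0 to 40.5 CPM in shoots against 353 to 416 CPM in roots for the root genes. The remaining root marker, the Casparian strip gene *Solyc02g067190.4*, had no reads in +N roots. Most of the sum of the root genes came from *Solyc02g092580.3*. This gene averaged 38.1 CPM in +N shoots, 30.6 CPM in −N shoots, 314 CPM in +N roots and 370 CPM in −N roots. Whole organs are mixtures of cell types, so fewer cells of a type and less RNA per cell cannot be told apart.

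*Solyc01g112190.3* responded to N in opposite directions, with lower levels in +N roots and higher levels in +N shoots. In shoots, +N libraries held 227, 330 and 228 of its reads (13.4, 17.4 and 13.9 CPM), and −N libraries held 30, 38 and 46 (1.43, 1.69 and 2.05 CPM). In roots, +N libraries held 236, 317 and 241 reads (12.5, 17.7 and 14.1 CPM), and −N libraries held 1958, 2248 and 2021 (100.3, 100.1 and 99.3 CPM). The treatments did not overlap in either organ. The highest and the lowest levels of the gene were both found under −N, in roots and in shoots, respectively.

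*Solyc08g013900.3* had lower levels under +N in both organs. In shoots, it had 384, 450 and 374 reads in +N libraries (22.6, 23.7 and 22.9 CPM), against 1898, 2055 and 2021 in −N libraries (90.6, 91.4 and 89.9 CPM). In roots, it had 229, 220 and 255 reads in +N libraries (12.2, 12.3 and 14.9 CPM), against 1631, 1746 and 1790 in −N libraries (83.6, 77.7 and 88.0 CPM). The treatments again did not overlap in either organ, and here the −N plants had the high levels in shoots as well as in roots.

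**Figure D1:**
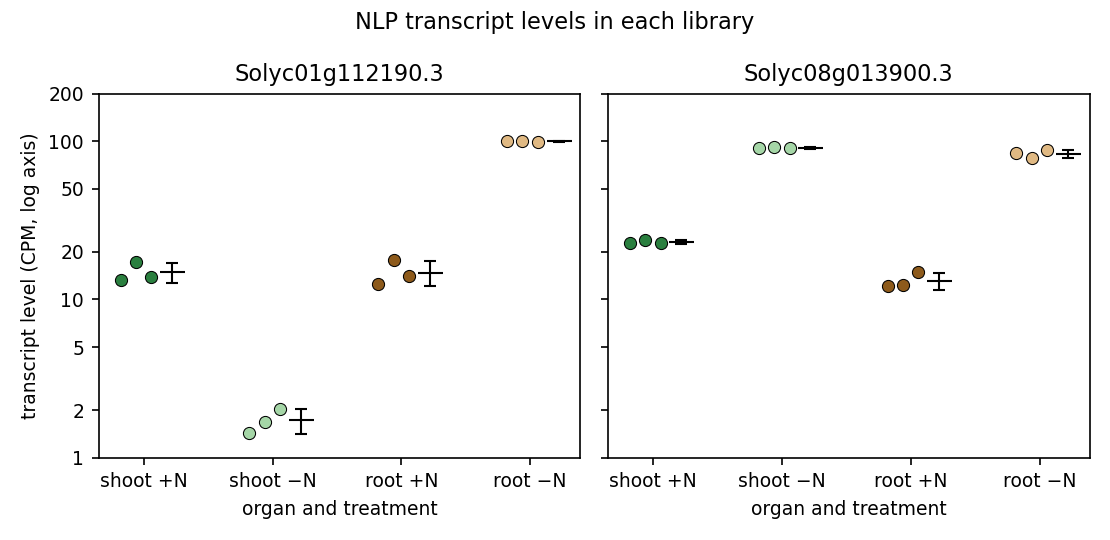
Level of *Solyc01g112190.3* (left) and *Solyc08g013900.3* (right) in each of the 12 libraries, in CPM on a log axis, by organ and treatment. Points are libraries, and the bar beside them gives the mean and SD of the 3 replicates. *Solyc01g112190.3* averaged 1.72 CPM in −N shoots and 99.9 CPM in −N roots but 14.9 CPM in +N shoots and 14.8 CPM in +N roots, while *Solyc08g013900.3* was high in −N libraries of both organs.

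The response in shoots was 9.16-fold upward for *Solyc01g112190.3*, with a log2 fold change of 3.20 (SE 0.17, 95% confidence interval 2.84 to 3.56, adjusted p = 3.90e-12 by edgeR). Its mean was 14.9 ± 2.16 CPM in +N shoots and 1.72 ± 0.31 CPM in −N shoots (SD, n = 3 each). It was the 94th largest rise among 20689 genes tested in shoots, of which 21.0% were called in either direction and 13.4% were called higher. As this rise was known when the gene was chosen, its p-value and rank are a description. The −N value rests on 114 reads over 3 libraries, with an exact Poisson 95% interval of 94.0 to 137 reads that covers counting error only.

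*Solyc08g013900.3* fell 3.69-fold in the same shoots, with a log2 fold change of −1.88 (SE 0.06, interval −2.01 to −1.75, adjusted p = 2.54e-15 by edgeR). Its mean was 23.0 ± 0.56 CPM in +N shoots and 90.6 ± 0.77 CPM in −N shoots (SD, n = 3 each). This was the 296th largest fall in shoots, where 7.62% of genes were called lower and 13.4% were called higher. Of the 8 photosynthetic marker genes, 3 were called higher in +N shoots (*Solyc02g063150.3*, *Solyc10g086580.2* and *Solyc02g070980.1*, 4.12- to 5.00-fold) and 5 were not called (1.08- to 1.84-fold). Their summed level was 10374 to 11331 CPM in +N shoots and 4296 to 4868 CPM in −N shoots, and the part of these genes in the shoot values of the NLP genes was not tested. The summed root markers lay at 36.6 to 40.5 CPM in +N shoots, with 4 of 8 genes at 0 in each library, and at 30.0 to 34.3 CPM in −N shoots, with 2 of 8 at 0.

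In roots, the falls of the NLP genes were of similar size. *Solyc01g112190.3* averaged 14.8 ± 2.64 CPM in +N roots and 99.9 ± 0.53 CPM in −N roots (SD, n = 3 each), a log2 fold change of −2.76 (SE 0.09, interval −2.95 to −2.57). *Solyc08g013900.3* averaged 13.1 ± 1.56 CPM in +N roots and 83.1 ± 5.14 CPM in −N roots (SD, n = 3 each), a log2 fold change of −2.67 (SE 0.08, interval −2.84 to −2.49). The falls were 6.78-fold and 6.35-fold, and they ranked 119th and 134th among the falls of 21049 genes tested, of which 12.6% were called in either direction and 6.38% were called lower. As these falls are the ones that led to the listing of the genes, nothing is read from their rank or from the background. Marker genes also moved in roots. Of 8 root markers, 5 were called higher in +N roots, among them the iron transporter gene match IRT1 and both expansin A7 genes. Only 1, the Casparian strip gene, was called lower. Of all genes tested in roots, 6.23% were called higher and 6.38% lower. The root markers summed to 353 to 385 CPM in +N roots and 356 to 416 CPM in −N roots. Most of this sum came from *Solyc02g092580.3*, which was not called. The photosynthetic markers summed to 16.7 to 21.3 CPM in +N roots and 7.81 to 12.1 CPM in −N roots, with 2 of 7 tested called higher. The part of these marker genes in the root values of the NLP genes was not tested.

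**Figure D2:**
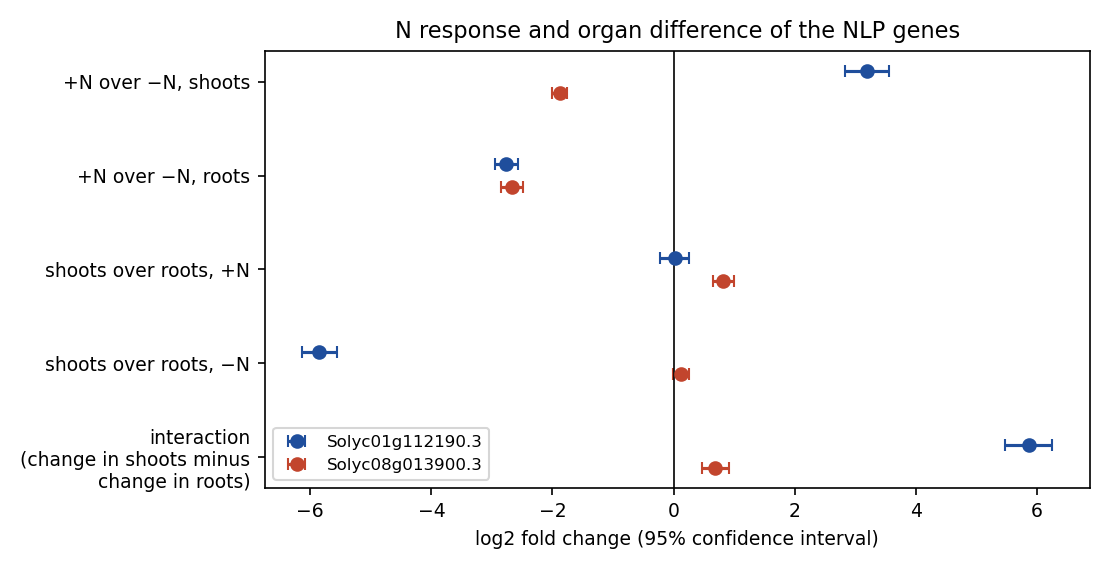
Log2 differences of the NLP genes, *Solyc01g112190.3* in blue and *Solyc08g013900.3* in red, for the N response in each organ, for shoots over roots under each treatment, and for the interaction (the shoot response minus the root response). Points are edgeR estimates and bars are 95% confidence intervals, and the genes lie together in roots (−2.76 and −2.67) but on opposite sides of 0 in shoots (3.20 and −1.88).

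Next, the organs were compared under each treatment in an edgeR fit of all 12 libraries. Under −N, *Solyc01g112190.3* was 57.6-fold lower in shoots than in roots, with a log2 difference of −5.85 (SE 0.14, interval −6.13 to −5.57, adjusted p = 4.02e-20 by edgeR). Organ differences were frequent, since 37.9% of 22483 genes were called between −N shoots and −N roots, with 19.8% higher and 18.1% lower in shoots. By the size of the fall *Solyc01g112190.3* stood 981st. The −N libraries of both organs also enter the N responses known when the gene was chosen. This p-value and rank are therefore a description. Under +N, the same gene did not differ detectably between organs, with a log2 difference of 0.02, whose sign turned in 4 alternatives, and an interval of −0.22 to 0.26 (adjusted p = 0.888 by edgeR), and the +N shoot and +N root libraries overlapped. The interval leaves room for a difference of up to 0.26 on the log2 scale, against a background of 44.8% of genes called between the organs under +N, 22.8% of them higher in shoots.

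For *Solyc08g013900.3* the organs were nearly level under −N, at 90.6 CPM in shoots and 83.1 CPM in roots. The log2 difference was 0.13 (interval −0.0052 to 0.26) and did not pass the test (adjusted p = 0.0757 by edgeR), although the lowest shoot library, at 89.9 CPM, lay above the highest root library, at 88.0 CPM. Under +N, its level was 1.76-fold higher in shoots than in roots, a log2 difference of 0.82 (SE 0.08, interval 0.64 to 0.99, adjusted p = 9.03e-09 by edgeR). This difference was larger than the spread between replicates but below the 2-fold cutoff, so that the gene was not called between organs under either treatment.

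Whether the N response itself differed between organs was tested as an interaction, that is the shoot response minus the root response, called at an adjusted p of 0.05. The scaling factors of the 12-library fit differ from those of the fits within an organ, so an interaction can depart slightly from the difference between the separate changes. For *Solyc01g112190.3* the interaction was 5.87 (SE 0.19, interval 5.48 to 6.25, adjusted p = 1.58e-15 by edgeR). For *Solyc08g013900.3* it was 0.69 (SE 0.10, interval 0.47 to 0.91, adjusted p = 1.02e-05 by edgeR), which reflects a smaller fall in shoots than in roots. Interactions were called for 48.4% of 22483 genes, 22.9% with a positive and 25.5% with a negative sign, so a call alone does not set the NLP genes apart. By size, the interaction of *Solyc01g112190.3* stood 33rd among all genes and that of *Solyc08g013900.3* stood 8169th. The root change enters each interaction and is also the basis of the listing of the genes. For *Solyc01g112190.3* the shoot change was known as well. These p-values and ranks are therefore a description and no independent support.

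The combinations of calls are given as a description, since the directions of *Solyc01g112190.3* in both organs were known when it was chosen. Of 19309 genes tested in both organs, 25 were called lower in +N roots and higher in +N shoots, which is 0.129%, and *Solyc01g112190.3* is 1 of them. The other way round, 27 were called, which is 0.140%. *Solyc08g013900.3* belonged to a larger class of 376 genes called lower in both organs, which is 1.95% of the genes tested in both.

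**Figure D3:**
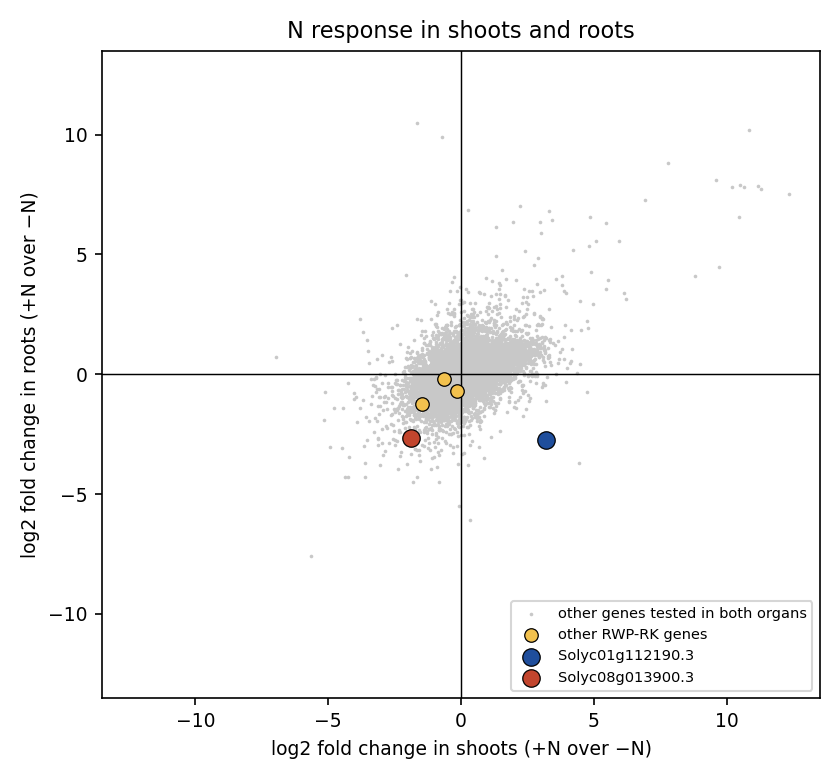
Log2 fold change (+N over −N) in shoots (x axis) against roots (y axis) for 19309 genes tested in both organs, in grey. *Solyc01g112190.3* (blue) lies at 3.20 in shoots and −2.76 in roots, in the quadrant with 25 called genes, while *Solyc08g013900.3* (red) and the other RWP-RK genes (yellow) lie below 0 in both organs.

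The reads of both NLP genes come from the same library, so their ratio does not depend on how libraries are scaled. Levels of different genes cannot be set against each other without transcript lengths, which were not used here, but a change in the ratio can be. In shoots, there were 0.591, 0.733 and 0.610 reads of *Solyc01g112190.3* per read of *Solyc08g013900.3* in +N libraries, against 0.0158, 0.0185 and 0.0228 in −N libraries. In roots, the ratio was 1.03, 1.44 and 0.945 in +N libraries, against 1.20, 1.29 and 1.13 in −N libraries. The ratio thus separated the treatments in shoots and overlapped between them in roots.

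On the log2 scale, the ratio averaged −0.64 ± 0.17 in +N shoots and −5.73 ± 0.26 in −N shoots (SD, n = 3 each). The difference of 5.09 (SE 0.18) is 34.1-fold. The exact two-sided permutation test gave p = 0.1, the smallest value that 3 against 3 libraries allow. The rise of *Solyc01g112190.3* that enters this difference was known when the gene was chosen, so the result is a description. In roots, the log2 ratio averaged 0.16 ± 0.32 in +N libraries and 0.27 ± 0.09 in −N libraries (SD, n = 3 each), and the difference of −0.10 (SE 0.19) gave p = 0.7 in the exact test. The root difference was smaller than its SE, but both genes were listed for a fall in roots, so nothing is concluded from it. In shoots, *Solyc01g112190.3* had a number of reads closer to that of *Solyc08g013900.3* under +N than under −N.

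**Figure D4:**
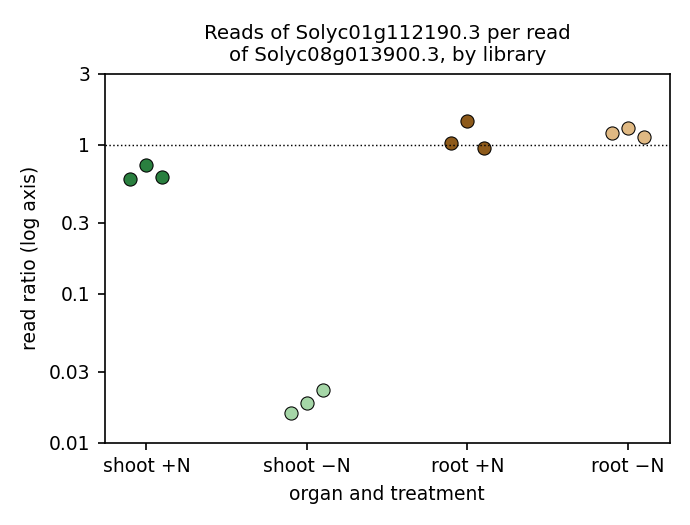
Reads of *Solyc01g112190.3* per read of *Solyc08g013900.3* in each of the 12 libraries, on a log axis, by organ and treatment. Points are libraries and the dotted line marks a ratio of 1. The 3 −N shoot libraries lie between 0.0158 and 0.0228, and all other libraries lie between 0.591 and 1.44.

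Replicates differed little in the groups with high levels. *Solyc01g112190.3* varied between −N root libraries by 0.535% of its mean, which is less than the 2.19% that counting alone would give on average. Its coefficient of variation was 17.9% in −N shoots, where counting alone would give 16.2%. It was 14.5% in +N shoots and 17.8% in +N roots, against 6.18% and 6.15% from counting. In both organs, the second replicate was the highest of the +N libraries. *Solyc08g013900.3* had coefficients of variation of 2.44% in +N shoots, 0.846% in −N shoots, 11.9% in +N roots and 6.18% in −N roots.

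Among the other genes with an RWP-RK domain, the listed descriptions name 4, and 3 of these had enough reads to be tested. *Solyc04g082480.3*, whose Arabidopsis match is NLP4, was down-regulated in both organs, as was *Solyc08g013900.3*. It averaged 17.8 ± 2.06 CPM in +N shoots and 52.0 ± 2.47 CPM in −N shoots, and 55.5 ± 3.01 CPM in +N roots and 130.5 ± 6.41 CPM in −N roots (SD, n = 3 each). Its log2 fold change was −1.46 (SE 0.08, adjusted p = 1.22e-11 by edgeR) in shoots and −1.23 (SE 0.06, adjusted p = 1.44e-10 by edgeR) in roots. It was also called lower in shoots than in roots, with log2 differences of −1.64 under +N and −1.33 under −N.

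*Solyc08g082750.3*, the gene whose Arabidopsis match is NLP7 itself, changed less. It averaged 73.8 ± 3.0 CPM in +N shoots and 87.2 ± 1.18 CPM in −N shoots, and 72.8 ± 4.63 CPM in +N roots and 117 ± 6.50 CPM in −N roots (SD, n = 3 each). The log2 fold change was −0.69 (SE 0.06, adjusted p = 1.28e-07 by edgeR) in roots, below the 2-fold cutoff, and −0.15 (SE 0.06, adjusted p = 0.0225 by edgeR) in shoots, so the gene was called in neither organ.

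*Solyc11g045350.2* shares its Arabidopsis match, AT2G43500, with *Solyc08g013900.3*. It averaged 36.6 ± 1.51 CPM in +N shoots and 61.4 ± 2.24 CPM in −N shoots, and 49.4 ± 2.10 CPM in +N roots and 56.6 ± 4.25 CPM in −N roots (SD, n = 3 each). Its log2 fold change was −0.65 (SE 0.06, adjusted p = 3.69e-08 by edgeR) in shoots and −0.20 (SE 0.07, adjusted p = 0.0171 by edgeR) in roots, and it was not called in either organ. The last gene, *Solyc03g083040.1*, had no reads in any of the 12 libraries. In shoots, 0 of the 3 tested genes were called higher, against 13.4% of all genes tested, and 1 was called lower, against 7.62%. In roots, 0 were called higher, against 6.23%, and 1 was called lower, against 6.38%. The genes come from lists of the study, so these counts are no evidence of a direction. The 3 genes had a median log2 fold change of −0.65 in shoots and −0.69 in roots. For all genes tested it was −0.0082 in shoots and −0.014 in roots.

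The interaction was called for each of these 3 genes, and in different directions. Of all 22483 genes tested, 48.4% were called for it, 22.9% with a positive and 25.5% with a negative sign. The interaction was 0.44 (SE 0.08, adjusted p = 1.12e-04 by edgeR) for *Solyc08g082750.3*, and −0.55 (SE 0.09, adjusted p = 4.04e-05 by edgeR) for *Solyc11g045350.2*. For *Solyc04g082480.3* it was −0.31 (SE 0.10, adjusted p = 0.0154 by edgeR), and this call was lost without the first +N shoot replicate (−0.23, adjusted p = 0.0772) and with DESeq2 (−0.23, adjusted p = 0.0713). Of the 5 RWP-RK genes tested, *Solyc01g112190.3* was the only gene with a positive change in shoots. This holds for the TMM scaling and for scaling by total counts. The rise was known when the gene was chosen, so its standing apart is a description.

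Genes of the processes that NLPs are known to regulate in Arabidopsis were read from lists of genes that the study names, so their counts are no evidence of a direction. Of 13 genes of nitrate uptake and reduction, 12 were tested in roots, where 10 were called higher, against 6.23% of all genes tested, and 0 were called lower, and 11 were tested in shoots, where 7 were called higher, against 13.4% of all genes tested, and 1 was called lower, against 7.62%. Their median log2 fold change was 2.97 in shoots and 3.64 in roots. The nitrate reductase gene *Solyc11g013810.3*, for the enzyme that reduces nitrate to nitrite, averaged 1510 ± 61.7 CPM in +N shoots and 109 ± 3.82 CPM in −N shoots, and 1511 ± 12.4 CPM in +N roots and 135 ± 30.5 CPM in −N roots (SD, n = 3 each). *Solyc01g086650.3*, a match of UPM1, which acts in the synthesis of the siroheme cofactor of nitrite reductase, rose by 4.21 in shoots and 5.17 in roots on the log2 scale. The nitrate reductase gene and the UPM1 match thus rose in both organs, as did 473 genes or 2.45% of those tested in both, whereas *Solyc01g112190.3* rose in shoots and fell in roots.

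The gene of this group that was called lower in shoots was *Solyc03g112090.3*, which encodes an NRT3 partner protein of nitrate transporters. It averaged 0.336 ± 0.188 CPM in +N shoots and 3.61 ± 0.110 CPM in −N shoots (SD, n = 3 each). The other NRT3 gene, *Solyc03g112100.3*, rose in roots (log2 fold change 1.52) and did not pass the test in shoots (0.17, adjusted p = 0.244 by edgeR). Interactions were called for 10 of the 13 genes, all with the negative sign, that is with a more positive change in roots than in shoots. Over all genes tested, 48.4% were called for the interaction and 25.5% had the negative sign. Some of these calls rest on very few reads. *Solyc11g069735.1* had 0 reads in +N shoots and 3 in −N shoots. *Solyc11g069760.1* had 1 read in +N shoots, 1 in −N shoots and 0 in −N roots. *Solyc03g112090.3* had 11 reads in +N roots and 20 in −N roots.

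Of 10 genes for regulators of the nitrate response, 6 of 9 tested were called higher and 1 lower in roots, where 6.23% of all genes were called higher and 6.38% lower. In shoots, 7 of 10 tested were called higher and 2 lower, where 13.4% of all genes were called higher and 7.62% lower. The median log2 fold change was 1.83 in shoots and 2.94 in roots. *Solyc03g111710.3*, a match of the BTB protein BT1, averaged 91.4 ± 5.28 CPM in +N shoots and 39.1 ± 2.46 CPM in −N shoots, and 567 ± 19.2 CPM in +N roots and 8.10 ± 0.70 CPM in −N roots (SD, n = 3 each). The related BT2 match *Solyc06g071820.3* fell in both organs, with log2 fold changes of −1.64 in shoots and −1.45 in roots, the direction of *Solyc08g013900.3*.

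The match of the bZIP factor TGA1, *Solyc04g054320.4*, also differed between organs, and in the sense opposite to *Solyc01g112190.3*. It averaged 19.2 ± 0.94 CPM in +N shoots and 83.5 ± 2.75 CPM in −N shoots, and 226 ± 9.89 CPM in +N roots and 146 ± 6.15 CPM in −N roots (SD, n = 3 each). Its log2 fold change was −2.03 in shoots, and in roots it was 0.63, below the 2-fold cutoff. The interaction was −2.75 (SE 0.08, adjusted p = 6.11e-16 by edgeR).

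Finally, the genes with patterns most like those of the NLP genes were ranked by Pearson's r of log2 CPM over the 12 libraries, among 2742 described genes with a mean of at least 5 CPM. The 12 points share organs, treatments and libraries, so r is a description. For *Solyc01g112190.3* the leading genes were *Solyc08g078030.4*, which encodes a protein of the HXXXD-type acyl-transferase family (r = 0.973), *Solyc03g043860.2*, for nudix hydrolase 1 (r = 0.958), and *Solyc10g083180.2*, for a protein of the NAD(P)-binding Rossmann-fold superfamily (r = 0.956). The last of these averaged 7.20 ± 0.71 CPM in +N shoots, 2.81 ± 0.59 CPM in −N shoots, 6.53 ± 0.78 CPM in +N roots and 33.4 ± 3.92 CPM in −N roots (SD, n = 3 each). It shares with *Solyc01g112190.3* the lowest level in −N shoots, the highest level in −N roots and close levels under +N, over a narrower range.

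For *Solyc08g013900.3* the leading genes were *Solyc03g025850.3*, for remorin 1 (r = 0.991), *Solyc01g104710.3*, for a thionin-like protein (r = 0.988), and *Solyc08g076490.2*, for MAP kinase kinase kinase 64 (r = 0.987). The remorin gene averaged 133 ± 3.65 CPM in +N shoots, 330 ± 2.23 CPM in −N shoots, 109 ± 7.28 CPM in +N roots and 302 ± 6.39 CPM in −N roots (SD, n = 3 each), so that it too was high in the −N libraries of both organs. It ranked first of all 16769 genes compared, described or not, whereas the first gene named for *Solyc01g112190.3* was the 3rd of all. Ranked by Spearman's rho, 0 of these 3 genes were among the leading 3 for either NLP gene.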

How the data were processed

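The deposited table holds whole-number read counts per gene in 12 RNA-Seq libraries. To make it, the authors used Cutadapt for trimming, Tophat2 for mapping to *S. lycopersicum* genome build 4.0 and htseq-count for counting. Versions of these tools, strandedness and the handling of multiply mapped reads were not given in the sources used here. Values of near-identical copies, overlapping genes and antisense genes are therefore uncertain. Libraries held 17472760 to 21901432 counts. Of the sample columns, 0 were left out. The chromatin libraries of the series were not analysed here.

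N changes were tested within each organ, and organ contrasts and the interaction over all 12 libraries, with edgeR 4.0.16 in R 4.3.3 (TMM, filterByExpr at min.count 10 and min.total.count 15, glmQLFit, glmQLFTest, Benjamini-Hochberg over all genes tested). Calls were made at 0.015 with at least a 2-fold change, and for interactions at 0.05. Standard errors and 95% intervals were derived from the F statistic. Log CPM for the pattern ranking used a prior count of 2. Tested on simulated counts with 200 changed genes, the test recovered 195 of 198 tested in roots (0 false calls), 193 of 197 in shoots (1 false call) and 186 of 197 for the interaction (9 false calls). In the simulation all genes had the same spread beyond counting error, and all changes were above the 2-fold cutoff. Unchanged genes had the same mean in every group. These figures are therefore not error rates for the measured data.

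The members and gene lists were chosen with earlier results of these data known. The text names both NLP genes, genes of the RWP-RK and nitrate lists, and for each NLP gene the 3 described genes with the highest r at a mean of at least 5 CPM. Descriptions and Arabidopsis matches come from the supplementary lists of the study, since 0 identifiers occur in the reference gene table, and no coordinates, lengths or sequences were used. Replicates are pools of different plants and no 2 replicates agreed within sampling noise (chi-square per degree of freedom 2.50 to 7.20). Alternatives were DESeq2 1.42.0, its size factors within edgeR, total counts, a filter of 1 CPM in 3 libraries or none, a shared fit of both organs, only the libraries of a treatment, the replicate block, glmTreat, thinning to the smallest library, 0.5 added to counts in the ratio, Spearman's rho, and leaving out each library.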

Additional observations from a re-analysis of the deposited data

Results flagged for a closer look

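The change with N supply differed between shoots and roots for both NLP genes and for the 3 other RWP-RK genes tested, by the test of the interaction in edgeR. The difference, as change in shoots minus change in roots on the log2 scale, was 5.87 for *Solyc01g112190.3* (adjusted p = 1.58e-15 by edgeR) and 0.69 for *Solyc08g013900.3* (adjusted p = 1.02e-05 by edgeR). It was 0.44 for *Solyc08g082750.3* (adjusted p = 1.12e-04 by edgeR), −0.55 for *Solyc11g045350.2* (adjusted p = 4.04e-05 by edgeR) and −0.31 for *Solyc04g082480.3* (adjusted p = 0.0154 by edgeR), where the call was lost in 3 of 19 alternatives (adjusted p up to 0.0772). Of all 22483 genes tested, 48.4% were called for this difference. The fall in roots for which both NLP genes were listed enters their values. The opposite response of *Solyc01g112190.3* in shoots was known when it was chosen. The p-values of the NLP genes are therefore a description.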

How the results depend on the processing

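Of the 10 results of the NLP genes, all kept their side of the thresholds under the 182 alternatives run, and 9 kept their direction. The exception was the difference of *Solyc01g112190.3* between +N shoots and +N roots (0.02, not called), whose sign turned in 4 alternatives. It was −0.11 with total counts and ran from −0.11 to 0.17 without single libraries, with negative values without +N root replicate 1 (−0.09), +N root replicate 3 (−0.01) or +N shoot replicate 2 (−0.11). The same contrast of *Solyc08g082750.3*, also not called, became −0.11 with total counts, −0.00044 after thinning and −0.031 to 0.057 without single libraries (negative without +N root replicate 1). The log2 ratio change in roots was −0.29 to 0.017 without single libraries, positive without +N root replicate 3. The cause was not tested. Without single libraries, *Solyc01g112190.3* ranged from 3.07 to 3.33 in shoots, −2.91 to −2.65 in roots and 5.74 to 6.02 for the interaction, and *Solyc08g013900.3* from −1.90 to −1.87, −2.76 to −2.62 and 0.64 to 0.79. Scaling by total counts moved the median of all genes to −0.30 in shoots and −0.18 in roots, and gave 2.90 in shoots and −2.93 in roots for *Solyc01g112190.3*, and −2.18 in shoots and −2.83 in roots for *Solyc08g013900.3*. Under that scaling 2 genes of nitrate uptake and reduction, not 1, were called lower in shoots. glmTreat against 2-fold, a stricter test by construction, called 2458 genes in shoots (main value 4348), 1240 in roots (main value 2654) and 3 with the combination of calls of *Solyc01g112190.3* (main value 25). The interaction of *Solyc04g082480.3* lost its call with DESeq2 size factors within edgeR (−0.23, adjusted p = 0.0663), as with the alternatives named for it above. With Spearman's rho, 0 of the 3 genes most like either NLP gene were kept, and with total counts 0 were kept for *Solyc08g013900.3*. Whether replicate numbers mark pairs is not known, and they were not used as pairs. Same-numbered libraries of +N and −N correlated in their deviations by −0.032 to −0.0067 in shoots and −0.0080 to −0.0035 in roots. Same-numbered shoots and roots correlated by 0.0018 to 0.015 under +N and −0.0087 to 0.051 under −N. Under −N, replicates 1 and 3 gave 0.051 and 0.041 for the same number, against −0.053 and −0.046 when crossed. Such small values cannot exclude pairing. With the number as a replicate block, the changes of *Solyc01g112190.3* were 3.20 and −2.77, those of *Solyc08g013900.3* −1.88 and −2.67, and 4327 genes in shoots and 2616 in roots were called. At this depth, the level of *Solyc01g112190.3* in −N shoots is limited by its 114 reads.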
